A study of Mus musculus with 7 samples.

Results

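The replication-dependent histone genes were taken as the protein-coding genes of the mm10 GENCODE M21 annotation whose symbols start with *Hist1h*, *Hist2h*, *Hist3h* or *Hist4h*. They numbered 67 of the 21938 protein-coding genes on chromosomes 1 to 19, X and Y. By family there were 6 linker histone H1 genes, 18 H2A genes, 18 H2B genes, 12 H3 genes and 13 H4 genes. Chromosome 13 held 54 of them, chromosome 3 held 10, chromosome 11 held 2 and chromosome 6 held 1. ATAC-seq, which maps open chromatin by letting Tn5 transposase cut accessible DNA, was read from 7 lists of called peaks. Of the libraries, 6 came from mouse embryonic fibroblasts (MEFs) that carry tetO-driven *Pou5f1*, *Klf4*, *Sox2* and *Myc* (OKSM) at *Col1a1*, with rtTA*M2 as the transactivator at ROSA26, collected on day 0 without doxycycline and on days 1, 2, 3, 6 and 9 of doxycycline at 2 ug/mL. The seventh came from untreated embryonic stem cells (ESCs) of the Bruce-4 line, although the genotype entered for it repeats that of the MEFs. There was 1 library per time-point, so no difference between libraries could be tested against replicate error.

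Replication-dependent histone genes supply the histones that package newly made DNA in S phase. They lie in clusters, lack introns, and end their mRNAs in a stem-loop that is bound by SLBP in place of a poly(A) tail. NPAT, recruited under cyclin E and CDK2, drives their transcription in the histone locus body, and many H2A and H2B genes stand head to head and share one short promoter. Core histones H2A, H2B, H3 and H4 form the nucleosome, and H1 binds the linker DNA between nucleosomes. Cultured fibroblasts and ESCs both divide and therefore both need these genes.

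Promoter sequences of the genes with the largest summed peak width are shown first, because the families differ in them. A transcription start site (TSS) is the 5′ end of the gene record, and widths are those of called peaks. In mm10, the 250 bases between the starts of *Hist1h2ac* and *Hist1h2bc* (chr13:23683949-23684198, plus strand) and the first 300 bases between *Hist1h2ah* and *Hist1h2bk* (chr13:22035569-22035868, plus strand) are the H2A-H2B promoters with the largest summed peak width. The other 3 sequences are the 200 bases before the start of the H1, H3 and H4 genes with the largest summed width, *Hist1h1c* (chr13:23738608-23738807, plus strand), *Hist1h3f* (chr13:23543852-23544051, plus strand) and *Hist1h4a* (chr13:23761231-23761430, minus strand). All run 5′ to 3′, and capitals mark the octamer ATTTGCAT, the CCAAT box, the TATA box TATAAA and GGTCCG, the core of a known H4 promoter element, on either strand.
Hist1h2ac-Hist1h2bc: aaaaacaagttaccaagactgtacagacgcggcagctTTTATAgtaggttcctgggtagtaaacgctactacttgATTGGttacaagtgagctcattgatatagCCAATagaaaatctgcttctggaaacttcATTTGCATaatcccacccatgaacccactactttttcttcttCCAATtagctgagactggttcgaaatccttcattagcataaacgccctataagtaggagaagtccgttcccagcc
Hist1h2ah-Hist1h2bk: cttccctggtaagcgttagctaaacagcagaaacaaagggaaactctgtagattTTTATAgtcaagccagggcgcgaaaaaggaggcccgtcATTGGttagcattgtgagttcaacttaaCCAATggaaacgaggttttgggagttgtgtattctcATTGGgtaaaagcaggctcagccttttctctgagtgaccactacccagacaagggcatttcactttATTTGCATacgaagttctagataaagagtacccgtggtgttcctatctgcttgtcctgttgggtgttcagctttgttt
Hist1h1c: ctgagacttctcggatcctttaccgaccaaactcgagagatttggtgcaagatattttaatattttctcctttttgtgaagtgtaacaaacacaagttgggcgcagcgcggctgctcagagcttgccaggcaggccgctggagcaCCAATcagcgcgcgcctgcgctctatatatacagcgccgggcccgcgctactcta
Hist1h3f: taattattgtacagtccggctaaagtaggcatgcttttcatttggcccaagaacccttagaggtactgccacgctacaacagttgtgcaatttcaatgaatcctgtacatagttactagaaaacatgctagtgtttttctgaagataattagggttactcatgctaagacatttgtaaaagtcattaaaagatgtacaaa
Hist1h4a: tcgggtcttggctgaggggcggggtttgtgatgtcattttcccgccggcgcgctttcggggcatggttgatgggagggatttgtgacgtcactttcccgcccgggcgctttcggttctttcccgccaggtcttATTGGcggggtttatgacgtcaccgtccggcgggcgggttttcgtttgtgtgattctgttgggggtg

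In the 250 bases before the TSS, the CCAAT box was present at 18 of 18 H2A and 18 of 18 H2B genes, and all of these held at least 2 copies. Of all protein-coding genes, 36% held the box and 11.1% held at least 2 copies. The octamer, the site of POU factors such as Pou2f1, was found at 7 H2A genes and 8 H2B genes and at no H1, H3 or H4 gene, against 1.45% of all genes. Paired genes read largely the same bases, so their matches are not separate observations. TATAAA was present at 34 of the 67 genes (50.7%), against 11.6% of all genes. GGTCCG was found at 12 of 13 H4 genes (92.3%), at 1 H2B gene and at 1 H3 gene, against 7.74% of all genes, and *Hist1h4a* was the H4 gene without it. This last motif was added after the sequences had been seen. Of the 38 histone genes with a peak in any library and the 29 with none, CCAAT was present at 78.9% and 82.8%, TATAAA at 44.7% and 58.6%, the octamer at 26.3% and 17.2% and GGTCCG at 26.3% and 13.8%. These shares were not tested. Median GC content of the window was 44.2% at histone genes and 53.8% at all genes.

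A gene was called open where at least 1 peak of the library lay within 1000 bp of its TSS. On day 0, 36 of 67 histone genes were open (53.7%, exact Clopper-Pearson 95% interval 41.1 to 66), against 54.5% of all protein-coding genes. On day 1, 35 were open (52.2%, 39.7 to 64.6), against 50.7% of all genes. The same number, 35, was open on day 2, when 46.9% of all genes were, and on day 3, when 51.4% were. It was 37 (55.2%, 42.6 to 67.4) on day 6, against 52.6%, and 37 on day 9, against 48.8%. In ESCs 34 were open (50.7%, 38.2 to 63.2), against 46%. The number of open histone genes thus stayed between 34 and 37 while the peak lists ranged from 27074 peaks in ESCs to 61241 on day 0. In each library the interval for the histone genes, which covers counting error only, included the share of all genes. Neighboring genes share peaks, so the genes are not independent and the intervals are too narrow.

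**Figure D1:**
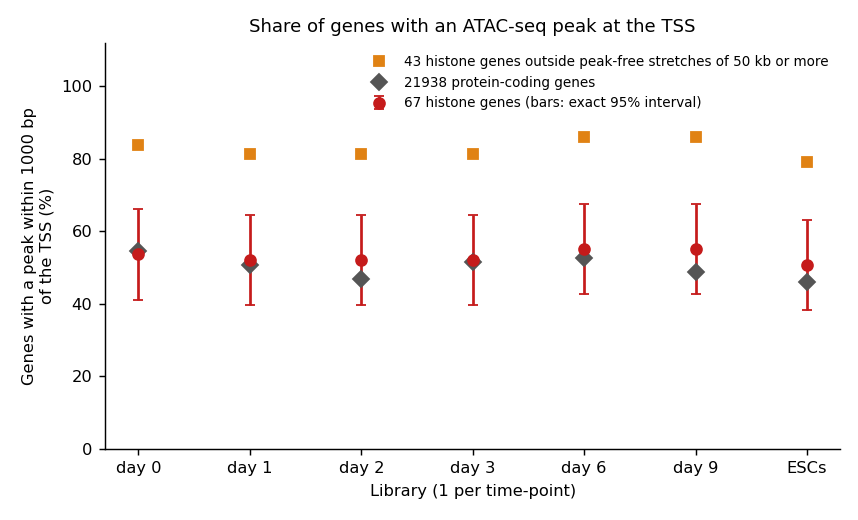
Share of genes with a called ATAC-seq peak within 1000 bp of the TSS (%) in each of the 7 libraries, for the 67 histone genes with exact 95% intervals, for the 43 histone genes outside peak-free stretches of 50 kb or more and for all 21938 protein-coding genes. The 67 genes lie between 50.7% and 55.2%, near all genes, and the 43 lie between 79.1% and 86%. The shares of the 43 are higher by construction, since the genes left out have no peak, and all genes were not filtered in this way.

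The count of genes without a peak followed position. In 24 of the 29 histone genes with no peak in any library, the TSS lay in 1 of 3 stretches of 50 kb or more that held no peak of any library. One, chr3:96172784-96294003 (121 kb), held the 10 *Hist2h* genes of chromosome 3 together with *Sv2a*, *Bola1* and *Fcgr1*, which also had no peak. Another, chr13:21750673-21848068 (97.4 kb), held 12 genes from *Hist1h2ak* to *Hist1h2br*. The last, chr13:23598391-23659682 (61.3 kb), held *Hist1h2be* and *Hist1h1e* by the starts of their GENCODE records. The lists also held no peak in any library at 7 of the 83 ribosomal protein genes (8.43%), which dividing cells transcribe, and at 7.61% of CpG-rich promoters. Of 12 histone genes with a CpG-rich promoter, 5 had no peak in any library. The state of chromatin in the 3 stretches was therefore not read from the lists, and these 24 genes were not analysed further. Among the other 43 genes, 83.7% were open on day 0, 81.4% on each of days 1, 2 and 3, 86% on days 6 and 9, and 79.1% in ESCs. The stretches were picked for holding no peak in these same lists, so these shares are higher by construction. All protein-coding genes were not filtered in this way, so their shares cannot be set against those of the 43.

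The 5 remaining genes without a peak were 3 testis-type histone genes and 2 H1 genes. *Hist1h1t*, which encodes the testis H1t, and the adjacent pair *Hist1h2ba* and *Hist1h2aa*, which encode testis variants of H2B and H2A, had no peak in any library. The same was true of *Hist1h1a* and, at its GENCODE start, of *Hist1h1d*. Reads that match several places can be lost in mapping, and the histone copies are similar. At these 5 genes, 92.9% to 100% of the 50-base stretches within 1000 bp of the TSS occur once in mm10. Over all 29 genes without a peak the median was 74.2% (range 0 to 100), and over the 38 with one it was 81.6% (range 60.6 to 97). The long peak-free stretches differed. In the 97.4 kb stretch the median of the 12 genes was 39% (range 0 to 100). It was 72.35% (21.5 to 99.2) for the 10 genes of the 121 kb stretch. For the 2 genes of the 61.3 kb stretch it was 96.05%. The 4 genes at 0%, *Hist1h2bq*, *Hist1h2ao*, *Hist1h2ap* and *Hist1h2br*, were all in the 97.4 kb stretch.

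**Figure D2:**
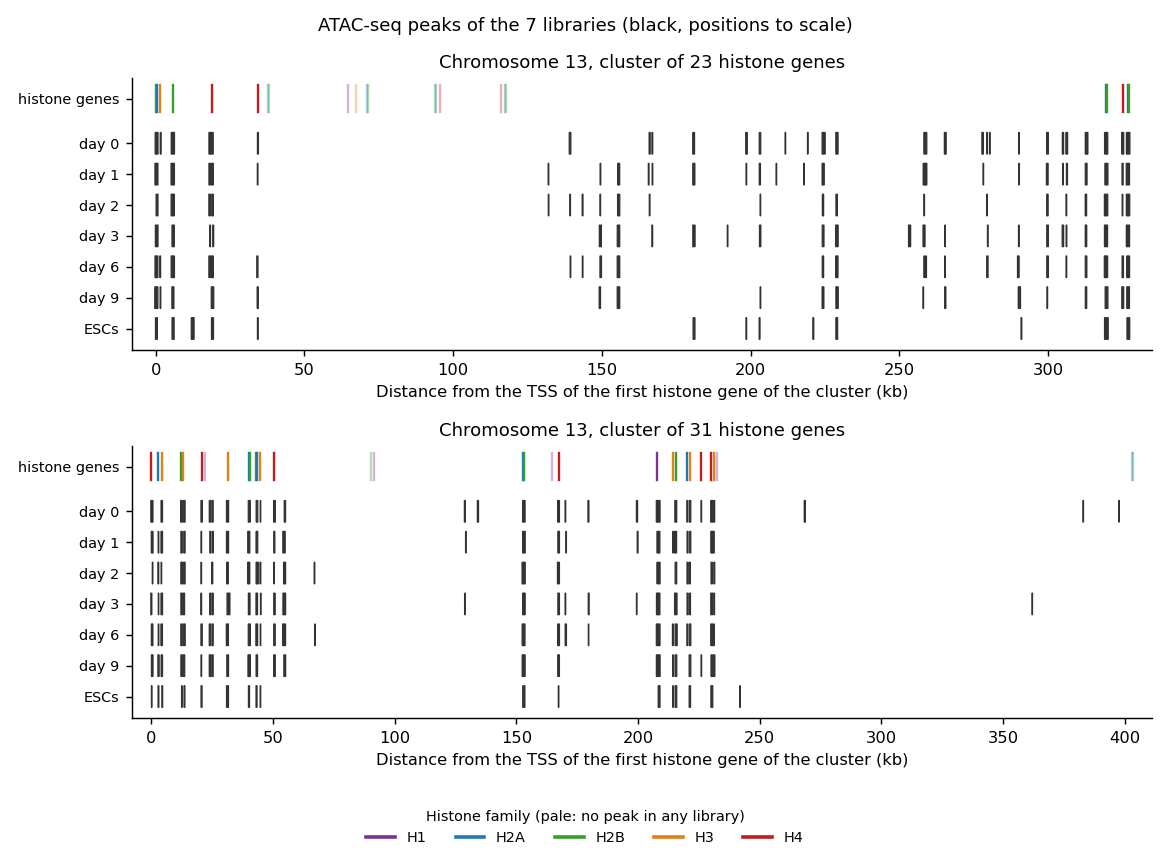
Called ATAC-seq peaks (black) of the 7 libraries along the clusters of 23 and 31 histone genes on chromosome 13, against the distance from the first TSS in kb. Ticks above are TSSs colored by family, pale where no library had a peak, and the pale ticks of the upper cluster share the 97.4 kb stretch without a peak.

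Over time, the largest state among histone genes was a peak in each library, a count that rests in part on neighbors' peaks. A peak within 1000 bp was present in all 7 libraries at 30 genes (44.8%, exact 95% interval 32.6 to 57.4), against 38.5% of all genes, and in no library at 29 genes (43.3%, 31.2 to 56), against 39.8%. Of the 38 genes with a peak in any library, the 30 are 78.9%, and the share over all 13200 such protein-coding genes is 64.1%. Counting each peak for its nearest histone gene alone, 16 genes (23.9%) had a peak in all 7 libraries, of 36 with any. Asking that a peak cover the TSS, 17 genes (25.4%) did, of 35 with any (48.6%), and so did 25% of all genes, which is 50% of those with any. Only 3 genes (4.48%) were open at both ends of the series, in MEFs and ESCs, with a gap between, against 4.71% of all genes. Another 3 (4.48%) had one on day 0 and not in ESCs, against 11.3%. A peak in ESCs but not on day 0 was found at 1 gene (1.49%), against 2.75%, and a peak on days 1 to 9 alone at 1 gene (1.49%), against 2.87%. All counts of 3 or fewer have wide intervals, such as 0.933% to 12.5% for 3 of 67, and the background lies inside each. In these bulk lists, fewer cells with an open promoter and a less accessible promoter in each cell cannot be told apart.

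The summed width of peaks was larger at histone genes than at all genes, while single peaks were of similar width. Adding the widths of the peaks within 1000 bp of the TSS, the median over open histone genes was 895, 893, 889, 886, 967, 839 and 620 bp in the order of the libraries, from day 0 to day 9 and then ESCs. Over all open genes the medians were 701, 643, 599, 657, 670, 622.5 and 559 bp. Single histone genes ranged from 224 to 1471 bp in the day 0 list and from 221 to 1172 bp in the ESC list. A larger share of open histone genes had 2 or more peaks in the window, 33.3% on day 0 and 11.8% in ESCs, against 12.4% and 9.36% of all open genes. Where histone genes stand close together, 1 peak is counted for several of them, and the 36 open genes of day 0 rested on 33 distinct peaks. Taken one by one, the distinct peaks near histone genes had median widths of 667, 521, 515, 582.5, 602, 607 and 429 bp, against 638, 590, 548, 603, 617, 585 and 506 bp for those near all protein-coding genes, larger on days 0 and 9 and smaller in the other 5 libraries. The genes are short, and in the median open gene peaks covered 52.6%, 57.5% and 41.3% of the gene body in the lists of day 0, day 6 and ESCs.

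The ESC library had the narrowest peaks at these genes. Among the 30 histone genes open in all 7 libraries, 27 had a smaller summed width in ESCs than on day 0, and the median was 63.2% of the day 0 width. Among the 8457 protein-coding genes open in all 7 libraries, 88.7% were narrower in ESCs and the median was 77.4%. On day 6 the histone genes stood at 101% of day 0, with 18 wider and 11 narrower, and all genes at 96.2%. Part of the ESC value moves with the number of peaks per gene. Taking only the widest peak of each gene, the median over open histone genes was 782.5 bp on day 0 and 620 bp in ESCs, and over all open genes 677 and 540 bp. The ESC list is also the shortest, and the part of list length in the width was not tested.

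**Figure D3:**
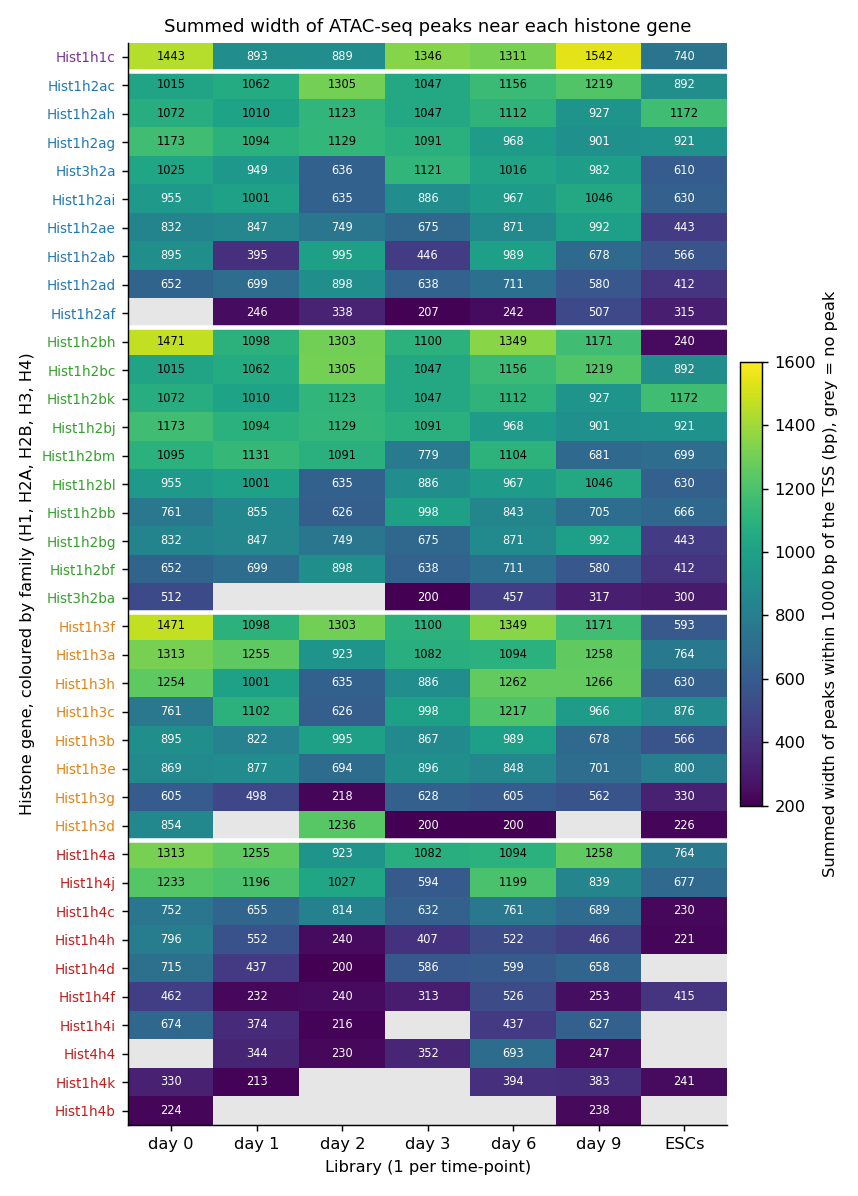
Summed width (bp) of called peaks within 1000 bp of the TSS for the 38 histone genes with a peak in any library (rows, grouped by family and ordered by total width) in the 7 libraries (columns), with grey where there was no peak. Gaps gather in the H4 block, and the ESC column holds lower values than day 0 at 27 of the 30 genes without a gap.

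Of the 6 linker histone genes, *Hist1h1c* alone had a peak, and it had one in all 7 libraries. Its summed width was 1443, 893, 889, 1346, 1311, 1542 and 740 bp in the order of the libraries. It had the largest total width of the 67 genes. From day 0 to day 6 the open region was split in 2, a peak at or just after the start and another that began 419 to 635 bp downstream, which on day 9 were 1 peak from -220 to 1321 bp around the TSS. The one at the start was 744, 294, 200, 534 and 669 bp wide in these 5 libraries. In ESCs only the downstream region had a peak, from 533 to 1272 bp after the TSS. *Hist1h1a*, *Hist1h1b*, *Hist1h1d*, *Hist1h1e* and *Hist1h1t* were at 0 in each library, and *Hist1h1b* and *Hist1h1e* lie in the long peak-free stretches. *Hist1h1d* depended on the annotation. With RefSeq transcript starts, *Hist1h1d* and *Hist1h2be* each had a peak on day 0 and none in ESCs, and no other gene changed state. The number of open genes was then 38, 37, 37, 37, 39 and 39 on days 0 to 9. At GENCODE starts it was 36, 35, 35, 35, 37 and 37, and in ESCs it was 34 with either annotation.

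At the head-to-head H2A-H2B pairs with a peak, one peak mostly covered both starts. The annotation holds 12 such pairs, whose starts lie 176 to 306 bp apart. A peak in any library was found at 6 pairs, and at all 6 both genes were open in all 7 libraries. In 40 of the 42 combinations of pair and library, a single peak covered both starts. The exceptions were *Hist1h2bl*-*Hist1h2ai* on day 2 and *Hist1h2ae*-*Hist1h2bg* in ESCs. Of the other 6 pairs, 5 lie in the long peak-free stretches and 1 is the testis pair *Hist1h2ba*-*Hist1h2aa*.

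The pair *Hist1h2ac*-*Hist1h2bc*, whose promoter is printed above, measured 1015, 1062, 1305, 1047, 1156, 1219 and 892 bp. Its peak reached from -682 to 332 bp around the *Hist1h2ac* start on day 0 and from -607 to 284 bp in ESCs, so that it held the CCAAT boxes and the octamer in both libraries. *Hist1h2ah*-*Hist1h2bk* measured 1072, 1010, 1123, 1047, 1112, 927 and 1172 bp, and its 2 genes were the only ones of the 38 whose ESC width was the largest of the 7. *Hist1h2ag*, which faces *Hist1h2bj*, measured 1173, 1094, 1129, 1091, 968, 901 and 921 bp. All 3 pairs kept 892 bp or more in each library. *Hist1h2bh* stands opposite the H3 gene *Hist1h3f*, 660 bp away, and the pair of genes shared 2 or 3 separate peaks in the MEF-derived libraries rather than one over both starts. *Hist1h2bh* measured 1471, 1098, 1303, 1100, 1349 and 1171 bp on days 0 to 9 and 240 bp in ESCs.

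Counting the *Hist1h2bh*-*Hist1h3f* pair with the others, 14 paired histone genes had a peak, and 14 of the 14 had one in all 7 libraries. Of the 24 genes outside pairs with a peak, 16 did (66.7%). The median summed width was 1015 bp in pairs and 825 bp outside them in the day 0 list, 1123 and 636 bp in that of day 2, and 630 and 588 bp in that of ESCs. Both starts of a pair draw on the same peaks, so the 14 genes are 7 promoters.

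**Figure D4:**
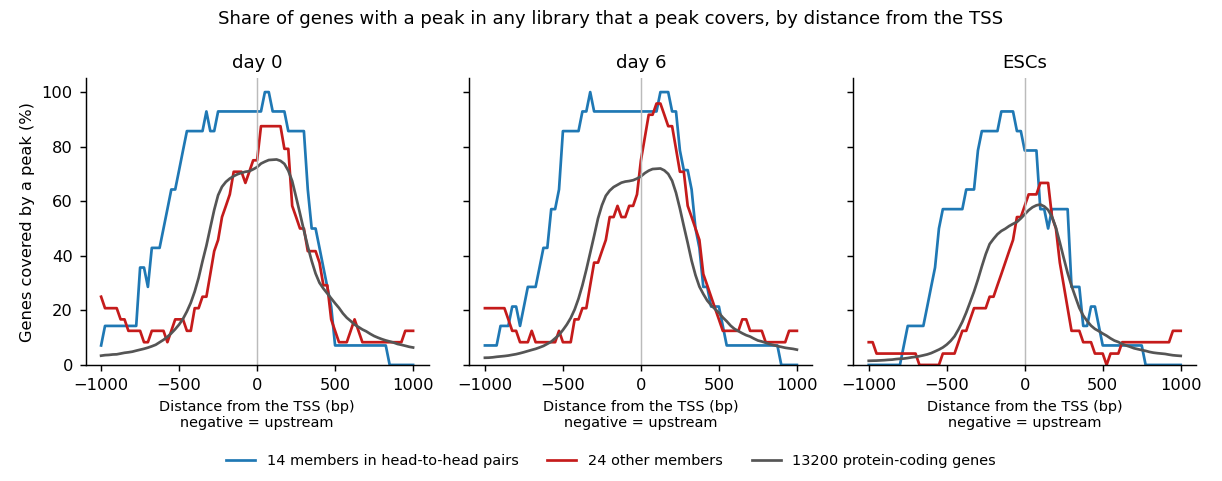
Share of genes (%) covered by a called peak at each distance from the TSS (bp, negative upstream) on day 0, day 6 and in ESCs, for the 14 histone genes in head-to-head pairs, the 24 other histone genes and the 13200 protein-coding genes with a peak in any library. At 500 bp upstream the paired genes are covered at 71.4%, 85.7% and 57.1%, the other histone genes at 16.7%, 8.33% and 4.17% and all genes at 14.8%, 12.8% and 7.46%.

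The H3 genes followed the pairs in width. A peak in any library was found at 8 of 12, and in all 7 libraries at 7. *Hist1h3f* measured 1471, 1098, 1303, 1100, 1349, 1171 and 593 bp in the order of the libraries. None of its peaks covered the annotated start, and the downstream one began 46 bp after it in day 0 MEFs and 420 bp after it in ESCs. The 200 bases printed above for *Hist1h3f* held none of the 4 motifs. *Hist1h3a* measured 1313, 1255, 923, 1082, 1094, 1258 and 764 bp, but these values include the peak at the start of *Hist1h4a*, and in ESCs that was the only peak counted. *Hist1h3h* measured 1254, 1001, 635, 886, 1262, 1266 and 630 bp, of which its own start held 299, 295 and 220 bp on days 0, 6 and 9. In the other 4 libraries the peak counted for *Hist1h3h* was that of *Hist1h2bl*-*Hist1h2ai*.

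Where a shared peak counts for each gene near it, the H4 genes had the smallest summed widths and the least constant peaks. Of 10 H4 genes with a peak in any library, 5 had one in all 7, and of the 28 genes of the other families with a peak, 25 did. The 25 rest in part on peaks of neighboring genes. Counting each peak for its nearest histone gene alone, 16 of the 67 genes had a peak in all 7 libraries and 31 in none. The state changed at 14 genes, none of them H4, so 5 of 10 H4 genes stood and the count of the other families fell. Counted in this way, H4 genes with a peak were no less constant than those of the other families. The median summed width of the H4 genes was 715, 437, 240, 586, 599, 546.5 and 328 bp in the order of the libraries. No peak, or a summed width under 300 bp, was found in 26 of 70 combinations of H4 gene and library, against 4 of 63 for H2A, 4 of 70 for H2B and 6 of 56 for H3. The number of open H4 genes was 9, 9, 8, 7, 9, 10 and 6. No test separates the families, since genes within a cluster share peaks and sequence. The 3 H4 genes with a peak on day 0 and none in ESCs are shown by the 120 bases before their starts, chosen after their values were seen, at chr13:22041363-22041482 (minus strand), chr13:23581478-23581597 (plus) and chr13:23756893-23757012 (plus), with *Hist1h2af*, an H2A gene open in each library but that of day 0, at chr13:23533786-23533905 (plus). Capitals mark the same motifs as above.
Hist1h4i: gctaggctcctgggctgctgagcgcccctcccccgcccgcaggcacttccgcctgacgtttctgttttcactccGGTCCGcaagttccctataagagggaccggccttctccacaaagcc
Hist1h4d: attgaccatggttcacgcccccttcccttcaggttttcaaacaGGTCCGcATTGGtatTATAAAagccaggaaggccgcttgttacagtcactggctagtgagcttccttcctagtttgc
Hist1h4b: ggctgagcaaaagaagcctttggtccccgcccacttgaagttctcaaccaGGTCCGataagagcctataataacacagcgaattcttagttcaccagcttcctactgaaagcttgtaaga
Hist1h2af: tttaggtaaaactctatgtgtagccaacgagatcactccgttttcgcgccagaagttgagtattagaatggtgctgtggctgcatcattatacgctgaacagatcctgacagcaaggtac

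Among the constant H4 genes, *Hist1h4a* measured 1313, 1255, 923, 1082, 1094, 1258 and 764 bp. It shares these values with *Hist1h3a*, and its own peak over the start was 844 bp wide on day 0 and 764 bp in ESCs. *Hist1h4j* measured 1233, 1196, 1027, 594, 1199, 839 and 677 bp. *Hist1h4c* measured 752, 655, 814, 632, 761 and 689 bp on days 0 to 9 and 230 bp in ESCs. *Hist1h4a* and *Hist1h4j* thus kept 594 bp or more in each library, and *Hist1h4c* was narrow in ESCs alone.

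**Figure D5:**
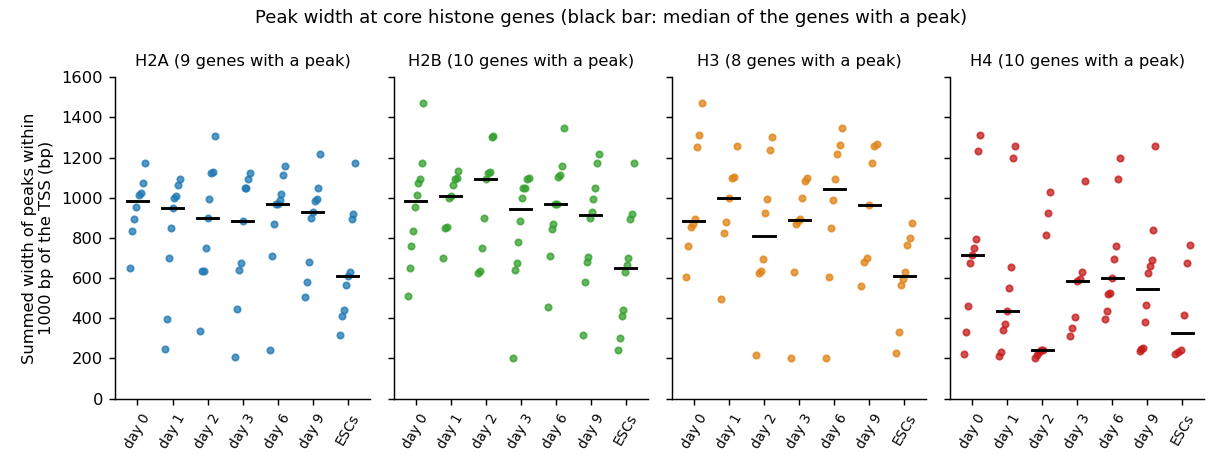
Summed width (bp) of called peaks within 1000 bp of the TSS for each open H2A, H2B, H3 and H4 gene in the 7 libraries, with the median of the open genes as a black bar. H4 medians lie between 240 and 715 bp, and those of the other families between 610 and 1091 bp.

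A peak on day 0 that was absent in ESCs was found at 3 genes at the main setting, all of the H4 family. Other settings added genes of other families. A window of 500 bp gave 7 genes, with *Hist1h1c*, *Hist1h2ab*, *Hist1h3a* and *Hist1h3h* added. Peaks of 300 bp or more also gave 7, among them *Hist1h2bh*. RefSeq starts gave 5, with *Hist1h1d* and *Hist1h2be* added. The 3 genes of the main setting are described here. *Hist1h4i* measured 674, 374 and 216 bp on days 0, 1 and 2, had no peak on day 3, measured 437 and 627 bp on days 6 and 9, and had none in ESCs. Its peak ran from -186 to 487 bp around the start on day 0, and on day 2 lay inside the gene from 104 to 319 bp. *Hist1h4d* measured 715, 437, 200, 586, 599 and 658 bp on days 0 to 9 and had no peak in ESCs. On day 2 its peak ended 56 bp before the start. *Hist1h4b* had a peak on day 0 (224 bp) and day 9 (238 bp) alone, both close to the narrowest peak of any list, 200 bp. All 3 genes had their smallest value or no peak on day 2 or day 3 as well as in ESCs. Of the sequence within 1000 bp of their starts, 90% to 94.3% of the 50-base stretches occur once in mm10.

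The 3 genes open at both ends with a gap between came from 3 families. *Hist1h4k* measured 330 and 213 bp on days 0 and 1, had no peak on days 2 and 3, and measured 394, 383 and 241 bp on days 6 and 9 and in ESCs. *Hist3h2ba*, the H2B gene of the small chromosome 11 cluster, measured 512 bp on day 0, had no peak on days 1 and 2, and measured 200, 457, 317 and 300 bp on days 3, 6 and 9 and in ESCs. *Hist1h3d* had no peak on days 1 and 9 and measured 854, 1236, 200, 200 and 226 bp in the other 5 libraries. Its larger values took in the peak of the neighboring pair *Hist1h2bf*-*Hist1h2ad*, and its own start held 202 and 338 bp on days 0 and 2. The gaps of *Hist1h4k* and *Hist3h2ba* both took in day 2, whose list held 33174 peaks. Both genes had a peak in the shorter lists of day 9 (33007 peaks) and ESCs (27074). Their gaps also took in longer lists, day 3 (48087 peaks) for *Hist1h4k* and day 1 (45709) for *Hist3h2ba*. A link with list length was not tested.

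A single gene gained a peak that ESCs also had. *Hist1h2af*, an H2A gene without a facing H2B gene, had no peak on day 0 and measured 246, 338, 207, 242, 507 and 315 bp on days 1, 2, 3, 6 and 9 and in ESCs. These 6 peaks all covered the start. *Hist4h4*, the lone histone gene of chromosome 6, had a peak on days 1 to 9 alone, of 344, 230, 352, 693 and 247 bp. Its peaks lay 138 to 875 bp inside the gene, except 1 on day 6 that covered the start. The replacement histone gene *H2afj* beside it was open in all 7 libraries with 570 to 677 bp. On chromosome 11, *Hist3h2a* measured 1025, 949, 636, 1121, 1016, 982 and 610 bp. Its annotated start is the same base as that of *Trim17*, so the peak cannot be assigned to either gene.

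Along the clusters, peaks covered a larger share of the bases than in the genome as a whole. Chaining genes whose starts lie at most 300 kb apart and adding 5 kb at each end gave 5 clusters of 836140 bp in all. In the order of the libraries, peaks covered 4.31%, 3.37%, 2.8%, 3.5%, 3.73%, 3.21% and 2.04% of this length, against 0.962%, 0.709%, 0.5%, 0.76%, 0.716%, 0.518% and 0.416% of the genome. Starts here are those of GENCODE records, and RefSeq starts were not used in these counts. Of the 70 cluster peaks on day 0, 33 lay within 1000 bp of a histone gene start (47.1%) and 32 away from any protein-coding start in these records. Of the 36 in ESCs, 26 lay at histone genes (72.2%) and 7 away from any such start. Over the whole genome, the share of peaks within 1000 bp of a protein-coding start was 19.8% on day 0 and 36.3% in ESCs, so the share at starts was higher in the shorter list there too.

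Most of the listed genes that regulate and process histone transcripts were open in all 7 libraries. Of 16 such genes, 14 had a peak in all 7 libraries and *Hinfp* and *Zfp473* had none in any. Over all protein-coding genes, 38.5% had a peak in all 7 libraries and 39.8% in none, and 7.61% of CpG-rich promoters had none. The lists were not tested against these shares. *Npat*, the coactivator of histone genes, measured 818 bp on day 0 and 661 bp in ESCs, and *Slbp*, the stem-loop binding protein, 1160 and 881 bp. The cyclin E genes *Ccne1* and *Ccne2* measured 764 and 1112 bp on day 0 and 610 and 1366 bp in ESCs. Of 11 replacement histone genes, which are expressed outside S phase, 9 were open in all 7 libraries and *H2afx* and *H3f3b* in none. *H2afz* measured 782 bp on day 0 and 708 bp in ESCs. Among markers of the labeled cells, 7 of 10 fibroblast genes were open on day 0 and 2 in ESCs. *Col1a1*, *Col1a2* and *Pdgfrb* were among those open on day 0 and not in ESCs. Of 10 ESC genes, 3 were open on day 0 and 2 in ESCs, namely *Klf2*, open in all 7 libraries, and *Zfp42*, which had a peak in ESCs alone (598 bp). The peaks of other ESC genes did not follow the label. *Pou5f1* (561 bp) and *Tfcp2l1* (483 bp) had a peak on day 0 and none in ESCs. *Sox2*, *Dppa5a* and *Fgf4* had a peak on days of doxycycline alone. The MEF-derived libraries also carry *Pou5f1* and *Sox2* as transgenes. Peaks at these 2 genes cannot be assigned to the endogenous copy or the transgene from the lists. *Nanog*, *Esrrb* and *Tdgf1* were at 0 in all 7 libraries and do not bear on the label. Apart from *Zfp42*, the ESC genes thus did not bear out the label of the ESC list, while the fibroblast genes, 7 open on day 0 and 2 in ESCs, went with it. A missing peak cannot be read as closed chromatin, so these counts do not settle the label.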

How the data were processed

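ATAC-seq was analysed in 7 mouse libraries, grouped by the time-point in their titles. The authors used Trimmomatic on the reads, aligned to mm10 by Bowtie2, applied SAMtools and Picard (duplicate removal), brought all samples to one depth, not given in the sources used here, and called peaks per library with MACS2. The deposited files hold peak coordinates alone, without scores or read counts, so the depth behind a peak is unknown. The narrowest peak is 200 bp. Columns of samples outside this series numbered 0.

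Peaks were compared with the 5′ end of each GENCODE M21 gene record at an overlap of 1 bp or more of the window 1000 bp either side, with Python 3.11.15 (pysam 0.24.0, scipy 1.17.1, numpy 2.4.6; figures by matplotlib 3.10.9), and checked against BEDTools 2.31.1 (0 of 153566 counts differed). On simulated data, 999 of 999 planted peaks were found. Promoters were called CpG-rich at 50% GC and an observed-over-expected CpG ratio of 0.6 or more. Sequences were read from the mm10 assembly, and RefSeq starts were found for 62 of the 67 genes.

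Values are given for all H1 genes, for the 3 genes of each core family with the largest summed width, for each gene of a state with 5 or fewer genes and for those outside chromosomes 13 and 3. A sequence planned for a gene without a peak is not shown, since the gene lies in a long peak-free stretch whose chromatin was not read from the lists. Genes and lists were chosen with earlier results of these data known. No p-value compares single libraries, and exact intervals cover counting error only. Alternatives set at the start were peaks of 300 bp or more, the 27074 widest peaks per library, a window of 500 bp, a peak over the TSS, any transcript start, each peak counted for its nearest histone gene, promoter units, genes with 90% of 50-base stretches found once, 5 libraries (day 0, 1, 3, 6 and ESCs) and the widest peak per gene. RefSeq starts and leaving out long peak-free stretches were added after seeing the data.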

Additional observations from a re-analysis of the deposited data

How the results depend on the processing

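Across the alternatives, 122 of 164 values moved by less than their interval or 1.5 times and 42 moved further, all of them shares of genes. Widths and covered lengths were not among the 42, and any transcript start, promoter units and the restriction to days 0, 1, 3 and 6 and ESCs moved none. A peak over the TSS left 38.8% of genes open on day 1, 35.8% on day 2 and 37.3% in ESCs, 25.4% in all 7 libraries, 8.96% with a gap between day 0 and ESCs, 11.9% with a peak on day 0 and not in ESCs, 2.99% with one in ESCs and not on day 0, and 2.99% on days 1 to 9 alone. Counting each peak for its nearest histone gene gave 23.9%, 7.46%, 11.9%, 7.46% and 2.99% for the same 5 states. Peaks of 300 bp or more, and also a window of 500 bp, gave 10.4% for day 0 and not ESCs and 2.99% for ESCs and not day 0. The 27074 widest peaks per library gave 4.48% for ESCs and not day 0 and 2.99% for days 1 to 9 alone, and RefSeq starts 7.46% for day 0 and not ESCs. The 19 genes with 90% of stretches found once were open at 36.8% on days 1, 2 and 3, 42.1% on day 6 and 26.3% in ESCs, with 21.1% in all 7 libraries, 15.8% on day 0 and not in ESCs, 0% in ESCs and not on day 0 and 5.26% on days 1 to 9 alone. Of these 19, 10 had no peak in any library.

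Without the 24 genes in long peak-free stretches, 43 genes remained, open at 83.7%, 81.4%, 81.4%, 81.4%, 86%, 86% and 79.1% in the order of the libraries, with 69.8% in all 7, 11.6% in none, 6.98% with a gap, 6.98% on day 0 and not in ESCs, 2.33% in ESCs and not on day 0 and 2.33% on days 1 to 9 alone. These shares rose by construction, since the stretches were picked for holding no peak. The cause of the other changes was not tested. The state changed at 8 genes with peaks of 300 bp or more, at 14 with a peak over the TSS and at 5 with a window of 500 bp. No paired analysis was possible because no group has 2 libraries. Read depth is unknown, so a missing peak cannot be read as closed chromatin.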

Other observations

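Most replacement histone genes lie away from the clusters and most were open in all 7 libraries. Cenpa, the centromeric H3, measured 713, 606, 640, 642, 664, 678 and 512 bp of peak within 1000 bp of the TSS on days 0, 1, 2, 3, 6 and 9 and in ESCs. H3f3a, which encodes H3.3, measured 1092, 725, 586, 765, 1053, 737 and 959 bp. H1f0 and H1fx, 2 linker histone genes outside the clusters, were open in all 7 libraries, with 236 to 561 bp and 209 to 1195 bp. At GENCODE starts, Hist1h1c was the only linker gene of the clusters with a peak. With RefSeq starts Hist1h1d also had one on day 0 and none in ESCs, and more histone genes were open on each of days 0 to 9. H2afy2 was narrow on days 1 and 2 (294 and 241 bp) and in ESCs (219 bp) and reached 800 bp on day 6. The lowest value of H1fx was in ESCs and that of H1f0 on day 1.

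Of the fibroblast markers, Col1a1 and Col1a2 had a peak on day 0 and on all 5 days of doxycycline and none in ESCs. The Col1a1 locus also holds the transgene, and its promoter measured 447 bp on day 0 and 391 to 607 bp on days 1 to 9. Of the ESC markers, Pou5f1 had one on day 0 (561 bp) and day 9 (492 bp) and none in ESCs. Both of these libraries carry the Pou5f1 transgene, from which the endogenous gene cannot be told apart in the lists.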
